A study of Mus musculus with 17 samples.

Results

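The drug-metabolising cytochromes P450 of the CYP1, CYP2 and CYP3 families were followed through 10 mouse genes, Cyp1a2, Cyp2a5, Cyp2b10, Cyp2c29, Cyp2d9, Cyp2d10, Cyp2e1, Cyp2f2, Cyp2j5 and Cyp3a11, in liver under 4 diets and in hippocampus. Every probe set annotated to a single one of these symbols on either array type was taken. This gave 12 probe sets for 9 of the 10 genes, among 6137 genes named on the arrays. Cyp2a5 had only a probe set shared with its near-identical neighbour Cyp2a4, so it has no value of its own. Of the 12 probe sets, 11 were bright enough for the liver tests, and the dim one was that of Cyp2b10.

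RNA from male Rj:NMRI mice, an outbred stock, was measured on a pair of oligonucleotide arrays, here chip A and chip B, each giving 1 background-subtracted intensity per probe set. Mice were housed 10 per cage and ate purified powdered diets until day 57 or 58, when they were killed in the morning after a fast of 0 to 6 h. All diets shared the same base, and the control diet contained none of the test oils. The fungal oil diet held 1.1% of an oil supplying arachidonate, the fish oil diet held 1.9% of an oil supplying docosahexaenoate, and a further diet held both oils. Each diet was given to 10 mice, of which 5 were selected, per the labels. The 5 liver RNAs comprised 2 of the control diet and 1 of each oil diet, all on both chips. The 4 hippocampus RNAs comprised 1 per diet, and that of both oils was measured on chip B. The labels do not say whether RNA of several mice was pooled or whether the 2 control RNAs came from different mice. The p-values of the liver diet tests rest on the spread between that pair, which may be technical. For each probe set it is combined with that of others of like brightness. The tissue and hippocampus fits use the residual spread over their own arrays. Diet cannot be told apart from cage, or from any difference between the RNAs in time of killing or length of fast. In whole tissue, fewer cells of a type cannot be told apart from less RNA per cell.

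Cytochromes P450 are haem enzymes, most of them anchored in the endoplasmic reticulum, that receive electrons from NADPH through P450 reductase and insert an oxygen atom into lipophilic substrates. Hepatocytes hold most of the enzyme, with many members enriched around the central vein. The nuclear receptors CAR and PXR and the aryl hydrocarbon (AH) receptor induce members of the CYP2B, CYP2C and CYP3A group and of the CYP1 family respectively, and several CYP2 enzymes also oxidise arachidonate and docosahexaenoate to epoxides.

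The 250 bases before the annotated start of 6 member genes are shown because these are the genes whose liver values are described in most detail; capitals mark TATAAA on either strand (TTTATA when on the other strand) and, in Cyp3a11, CAAAGTCCA, a core bound by HNF4. The sequences are from RefSeq, build GRCm38.p6, 5′ to 3′ in the direction of the gene.
Cyp3a11, chr5:145879855-145880104, minus strand: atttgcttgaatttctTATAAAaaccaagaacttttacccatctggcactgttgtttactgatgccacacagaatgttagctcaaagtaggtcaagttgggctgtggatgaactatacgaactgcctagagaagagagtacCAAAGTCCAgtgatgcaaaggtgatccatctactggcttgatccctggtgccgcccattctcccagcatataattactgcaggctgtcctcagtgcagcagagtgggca
Cyp2c29, chr19:39286835-39287084, plus strand: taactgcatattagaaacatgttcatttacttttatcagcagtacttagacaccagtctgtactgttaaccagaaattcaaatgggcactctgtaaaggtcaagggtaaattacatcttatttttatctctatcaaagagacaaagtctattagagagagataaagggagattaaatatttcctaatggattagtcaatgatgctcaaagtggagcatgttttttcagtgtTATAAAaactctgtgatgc
Cyp2e1, chr7:140763569-140763818, plus strand: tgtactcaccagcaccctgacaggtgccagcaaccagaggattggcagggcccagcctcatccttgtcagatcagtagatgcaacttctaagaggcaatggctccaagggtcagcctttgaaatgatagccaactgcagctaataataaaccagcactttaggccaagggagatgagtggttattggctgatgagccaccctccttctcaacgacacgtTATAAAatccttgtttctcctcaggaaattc
Cyp1a2, chr9:57683656-57683905, minus strand: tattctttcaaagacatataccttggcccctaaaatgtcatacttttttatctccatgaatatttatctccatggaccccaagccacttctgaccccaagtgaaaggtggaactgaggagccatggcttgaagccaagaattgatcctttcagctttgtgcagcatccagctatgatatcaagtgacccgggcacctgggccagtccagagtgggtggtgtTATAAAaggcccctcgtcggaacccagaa
Cyp2d9, chr15:82452127-82452376, plus strand: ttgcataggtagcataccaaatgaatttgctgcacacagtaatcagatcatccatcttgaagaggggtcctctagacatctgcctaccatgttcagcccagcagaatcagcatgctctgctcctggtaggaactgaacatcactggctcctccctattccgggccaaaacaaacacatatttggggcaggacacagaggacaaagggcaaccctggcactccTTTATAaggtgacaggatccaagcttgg
Cyp2d10, chr15:82407195-82407444, minus strand: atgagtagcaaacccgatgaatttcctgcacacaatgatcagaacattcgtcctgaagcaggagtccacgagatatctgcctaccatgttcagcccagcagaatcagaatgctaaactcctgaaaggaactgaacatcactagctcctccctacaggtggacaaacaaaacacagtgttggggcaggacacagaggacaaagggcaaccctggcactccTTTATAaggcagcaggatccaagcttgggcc

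TATAAA on either strand occurred in these windows in 8 of the 10 member genes and in 12.4% of 32851 promoters in the table. The windows of Cyp2b10 and Cyp2f2 did not hold these letters. In Cyp1a2 the match lay 29 to 24 bases before the start and in Cyp2e1 31 to 26 bases before it, whereas in Cyp3a11 it lay 234 to 229 bases before it. CAAAGTCCA occurred in Cyp3a11 alone of the members, 109 to 101 bases before the start, and in 0.384% of all promoters. Searched likewise on both strands, the nuclear receptor half-site AGGTCA was found in 4 of the 10 (Cyp2c29, Cyp2f2, Cyp2j5 and Cyp3a11; 14.0% of all promoters), the HNF1 half-site GTTAAT in Cyp2a5 (6.43%) and the AH receptor core GCGTG in Cyp2b10 (28.2%). None of the matches overlapped in the member windows. The members held 0 to 4 CpG dinucleotides per window, against a median of 6 over all promoters. Cyp2d9 and Cyp2d10, on opposite strands of chromosome 15, aligned at 82.7% identity (210 of 254 columns), while the other 44 pairs of members lay between 47.3% and 54.0%.

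The tissue labels were checked first. Summed intensities of 11 hepatocyte markers ran from 85488 to 102545 in liver and from 473 to 960 in hippocampus, and 10 of 13 neuron markers were below the floor in liver, a lower limit of 0.1 times the trimmed mean of an array. That trimmed mean, taken without the lowest and highest 2% of probe sets, ran from 146 to 149 over the 17 arrays. The fish oil liver arrays stood apart at the bright end. Of the 50 brightest probe sets, 43 on chip A and 42 on chip B were above the control mean there, with median log2 differences of 0.28 and 0.20, against -0.01 and 0.02 for the remaining probe sets. The same medians were 0.03 and 0.06 for fungal oil and -0.02 and 0.10 for both oils. The highest chip A value was 9754 and 9811 in the controls (Scd1, stearoyl-CoA desaturase) and 13101 in the fish oil array (Cyp2e1). The level at which a signal saturates is not given in the sources used here. On each liver array 1 probe set alone held the highest value. Cyp2e1 lay just below that value in the controls, and whether its signal was saturated there was not tested. Of the P450 probe sets, 4 on chip A and 1 on chip B belong to these 50. The part of the brighter top signals in the fish oil values below was not tested. Values after quantile and cyclic loess normalization, which bring the bright ends of the arrays together, are given beside some of them. Quantile normalization gives equal ranks on 2 arrays equal values, so near the top it largely sets a difference by rank.

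Cyp3a11, the main CYP3A enzyme of male mouse liver and a known PXR target, was higher in all 3 oil RNAs than in both controls by each of its 2 probe sets. On X60452_f_at the intensity was 4935 and 4618 in the controls, 7297 with fungal oil, 8429 with fish oil and 6542 with both oils. On the Msa probe set of the same chip it was 4072 and 4319 in the controls, 7003 with fungal oil, 6383 with fish oil and 5249 with both oils. The groups did not overlap on either probe set, and the RNA of both oils lay below each single-oil RNA on both. The 2 probe sets gave a different order of the single oils.

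As log2 differences from control, the first probe set gave 0.61, 0.82 and 0.45 for fungal, fish and both oils (SE 0.13; 1.53-, 1.77- and 1.37-fold), and the second gave 0.74, 0.61 and 0.32 (SE 0.13; 1.67-, 1.52- and 1.25-fold). None of these passed a limma adjusted p of 0.05; the adjusted p-values lay between 0.377 and 0.552. Quantile normalization lowered the both-oils value of the Msa probe set to 0.20, and left the other 5 values between 0.38 and 0.68. The difference of the both-oils RNA from the sum of the single-oil differences was -0.98 (SE 0.20) and -1.02 (SE 0.19), with a limma adjusted p of 0.527 for each. Both probe sets carry the suffix that marks probes shared within a gene family, so signal from other Cyp3a transcripts cannot be told apart from Cyp3a11. Cyp3a16, a family member whose own probe sets carry the same suffix, gave 1398 and 1478 in the controls, 2805 with fungal oil, 2835 with fish oil and 2282 with both oils on its brightest probe set. Cyp3a13, a more distant member, gave 531 and 686 in the controls, 790 with fungal oil, 846 with fish oil and 825 with both oils. The oil RNAs were above both controls on these probe sets too. Because of the shared probes, the Cyp3a16 values are not separate evidence from those of Cyp3a11.

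**Figure D1:**
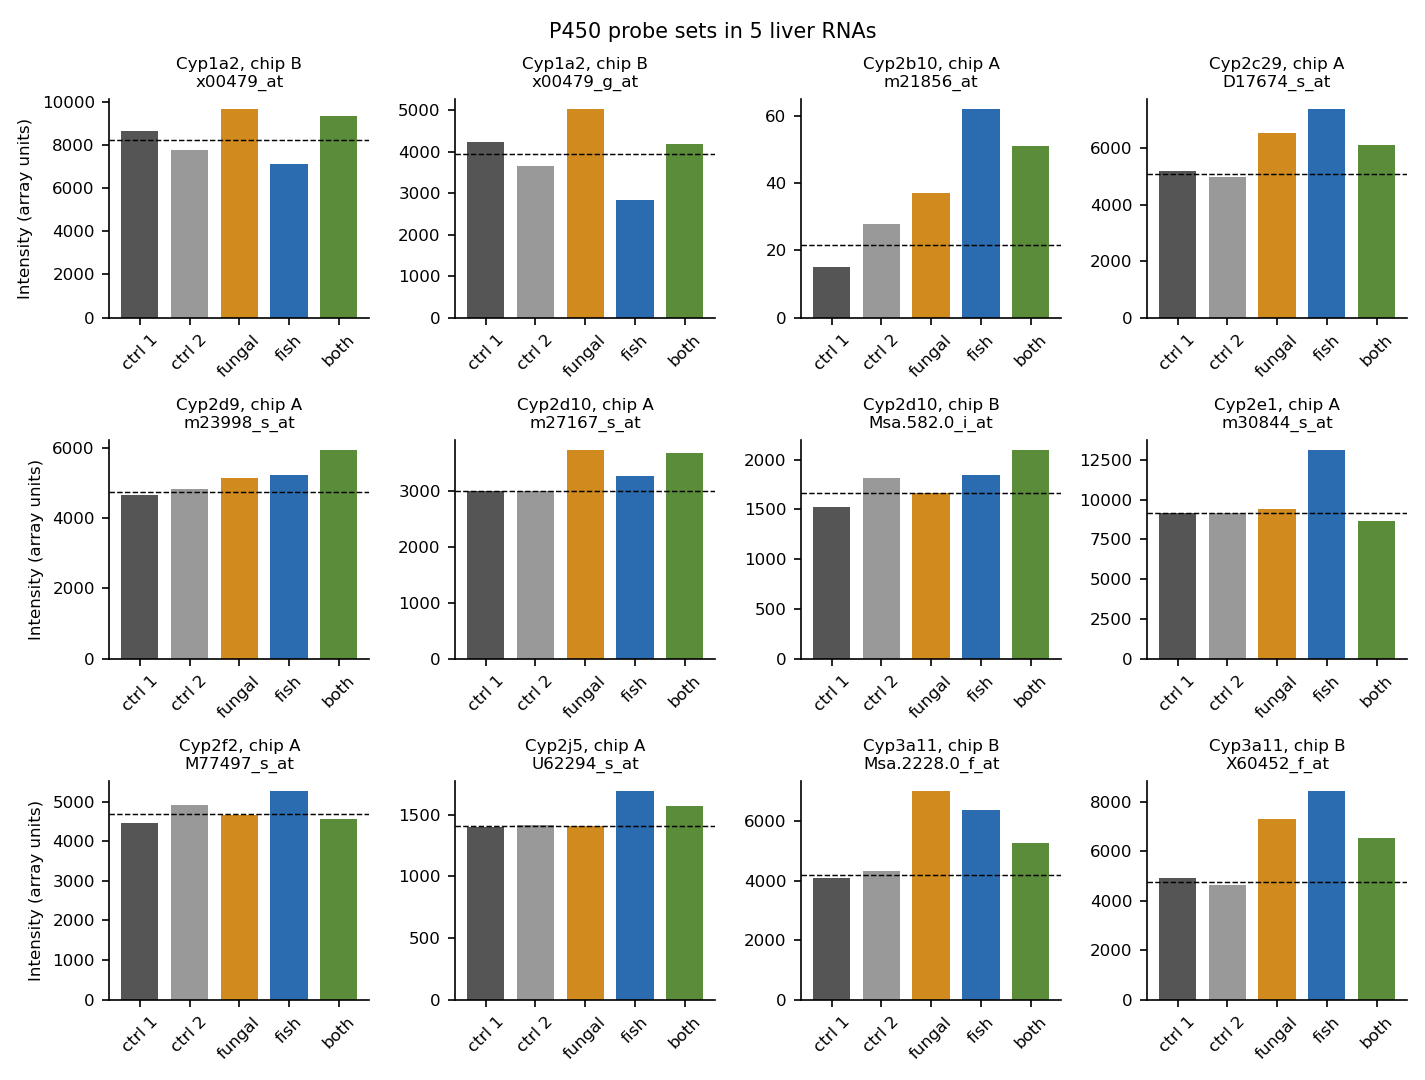
Intensity (array units, linear axes from 0) of the 12 P450 probe sets in the 5 liver RNAs, 1 bar per RNA, with the mean of the 2 controls as a dashed line. Both Cyp3a11 panels and the Cyp2c29 panel show all 3 oil bars above both control bars, and the Cyp2e1 panel shows only the fish oil bar standing clear.

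Cyp2c29, a constitutive CYP2C enzyme that epoxidises arachidonate and is inducible through CAR, followed the same direction. Its intensity was 5191 and 4996 in the controls, 6559 with fungal oil, 7384 with fish oil and 6107 with both oils. All 3 oil RNAs lay above both controls, with log2 differences of 0.37, 0.54 and 0.26 (SE 0.06). Over all probe sets tested the limma adjusted p was 0.501, 0.366 and 0.453. Among the 3269 brightest probe sets (those from the 75th percentile of their chip upward), tested alone, it was 0.0441 for fish oil and 0.0349 for the mean of the 3 oil diets (log2 0.39, SE 0.05). The fish oil value was 0.31 after quantile normalization and 0.37 after cyclic loess normalization. The fungal oil RNA, in which Cyp2c29 had the same rank of 20, took the same quantile value.

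Cyp2e1, the ethanol- and acetone-oxidising enzyme, had the highest mean of chip A over the 5 liver RNAs. Its intensity was 9172 and 9171 in the controls, 9438 with fungal oil, 13101 with fish oil and 8671 with both oils. Only the fish oil RNA stood clear of the rest, 0.51 above control on the log2 scale (SE 0.05; 1.43-fold), with fungal oil at 0.04 and both oils at -0.08. The limma adjusted p for fish oil was 0.366 over all probe sets and 0.0313 among the brightest. Quantile normalization left 0.12 of the fish oil difference and cyclic loess 0.32, with limma adjusted p-values of 0.432 and 0.201. The value for both oils turned to 0.08 under quantile normalization and that for fungal oil to -0.06 under cyclic loess. Cyp2e1 ranked 4 on both control arrays of chip A, 2 with fungal oil, 1 with fish oil and 2 with both oils. Its quantile values were thus bound to lie close together and cannot measure the part of the brighter top signals.

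**Figure D2:**
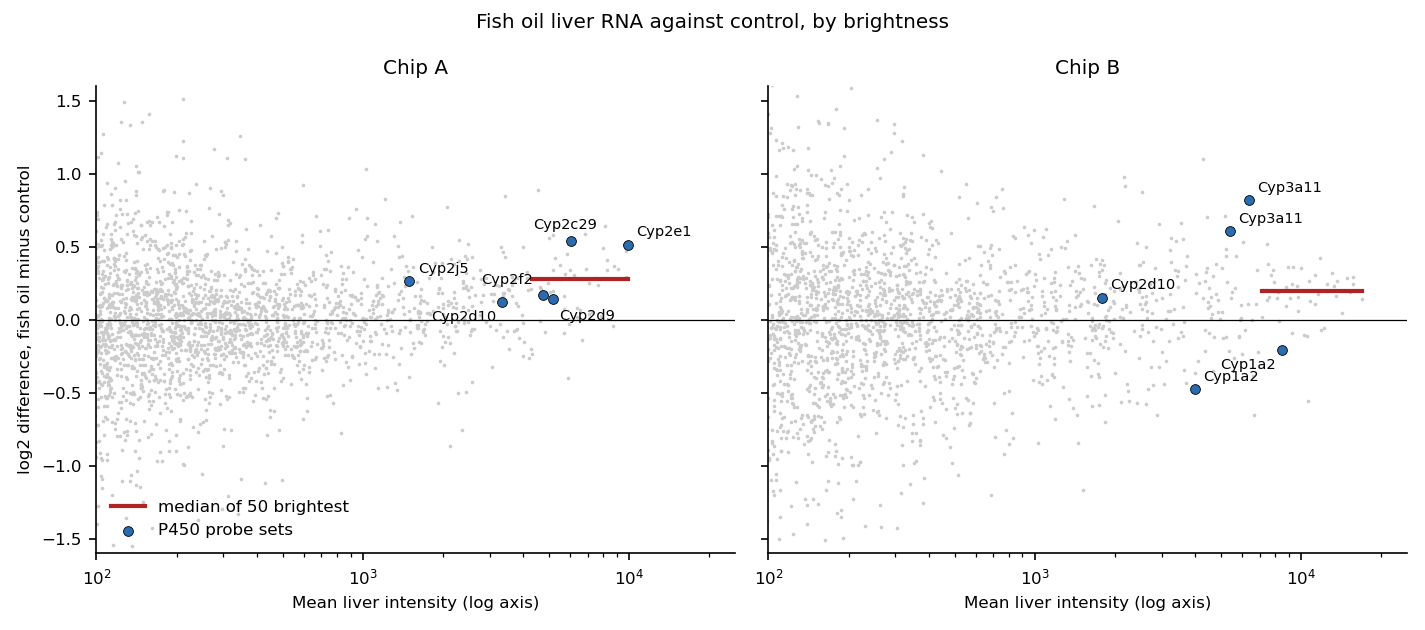
Log2 difference of the fish oil liver RNA from the mean of 2 controls (vertical) against the mean liver intensity (horizontal, log axis) for probe sets kept on chip A and chip B; points outside the axes are not drawn. Blue points are P450 probe sets and the red line is the median of the 50 brightest, at 0.28 on chip A and 0.20 on chip B; Cyp3a11 lies above that line and Cyp1a2 below 0.

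Genes of the same chip were ranked by how closely their centred log2 values over the 5 liver RNAs followed those of 3 member genes, the ones with the widest range when each tested gene is represented by its brightest probe set; no test applies to a ranking over 5 RNAs. Nearest to Cyp2e1 were Serpina1e, Gstp1 and Mup3, with root-mean-square differences of 0.01, 0.02 and 0.05 among 1277 candidate genes whose median was 0.26. These 3 are themselves bright, with fish oil intensities of 10464, 12575 and 6582 against control values of 7402 and 7511, 8730 and 8844, and 4802 and 5012. Nearest to Cyp2c29 were Mtm1, Mup5 and Psmd6 (0.06, 0.06 and 0.07), of which Mtm1 and Psmd6 ranged from 122 to 403. Nearest to Cyp3a11 were Ppp2r5d, Alad and Lamtor5 (0.12, 0.12 and 0.13) among 599 candidates with a median of 0.38. Alad, the porphobilinogen synthase of the haem pathway, gave 4053 and 3062 in the controls, 4713 with fungal oil, 5743 with fish oil and 4682 with both oils.

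Cyp1a2, the AH receptor target that oxidises caffeine and aromatic amines, was the member with lower values under fish oil. On x00479_at the intensity was 8658 and 7775 in the controls, 9655 with fungal oil, 7107 with fish oil and 9322 with both oils. On x00479_g_at it was 4238 and 3666 in the controls, 5021 with fungal oil, 2839 with fish oil and 4187 with both oils. On both probe sets the fish oil RNA was below both controls and the fungal oil RNA above both. The log2 differences were -0.21 and -0.47 for fish oil and 0.23 and 0.35 for fungal oil (SE 0.15), with limma adjusted p-values of at least 0.452. Fish oil minus fungal oil was -0.44 (SE 0.17) and -0.82 (SE 0.18), with limma adjusted p-values of 0.561 and 0.521. After quantile normalization the fish oil differences from control were -0.35 and -0.48. The 2 probe sets come from the same reference sequence, so they are not separate evidence. Cyp1a1, another AH receptor target of the family, was dim, with 78 and 24 in the controls and 81, 83 and 110 with fungal, fish and both oils.

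Cyp2d9 and Cyp2d10 belong to the mouse CYP2D group, in which Cyp2d9 is a male-predominant testosterone hydroxylase. Cyp2d9 gave 4668 and 4847 in the controls, 5145 with fungal oil, 5245 with fish oil and 5940 with both oils. The oil RNAs were above both controls, with log2 differences of 0.11, 0.14 and 0.32 (SE 0.06), and the fish oil value turned to -0.05 under quantile normalization and to -0.01 under cyclic loess. Cyp2d10 was measured on both chips. On chip A it gave 2993 and 3004 in the controls, 3727 with fungal oil, 3263 with fish oil and 3684 with both oils. The log2 differences there were 0.31, 0.12 and 0.30 (SE 0.07), with the fish oil value at -0.02 under quantile normalization. On chip B, where the probe set carries the suffix for an incomplete probe set, it gave 1520 and 1817 in the controls, 1665 with fungal oil, 1844 with fish oil and 2095 with both oils. Here the fungal oil RNA lay between the controls, so the chips disagreed on that diet, while the fish oil and both-oils RNAs were above both controls on each chip.

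Cyp2f2, a naphthalene-oxidising enzyme enriched in periportal hepatocytes and airway club cells, and Cyp2j5, an arachidonate epoxygenase, showed small differences. Cyp2f2 gave 4446 and 4915 in the controls, 4667 with fungal oil, 5258 with fish oil and 4548 with both oils. Fungal and both oils lay between the controls and fish oil above them (log2 0.17, SE 0.09), but only 0.013 above after quantile normalization and 0.024 after cyclic loess. Cyp2j5 gave 1403 and 1415 in the controls, 1412 with fungal oil, 1690 with fish oil and 1569 with both oils. Fish oil was 0.26 above control and both oils 0.16 above (SE 0.08), with limma adjusted p-values of 0.436 and 0.611. Cyp2b10, a classical CAR target, was close to the floor, at 15 and 28 in the controls, 37 with fungal oil, 62 with fish oil and 51 with both oils. The oil RNAs were above both controls, at a level too near the floor to be tested.

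**Figure D3:**
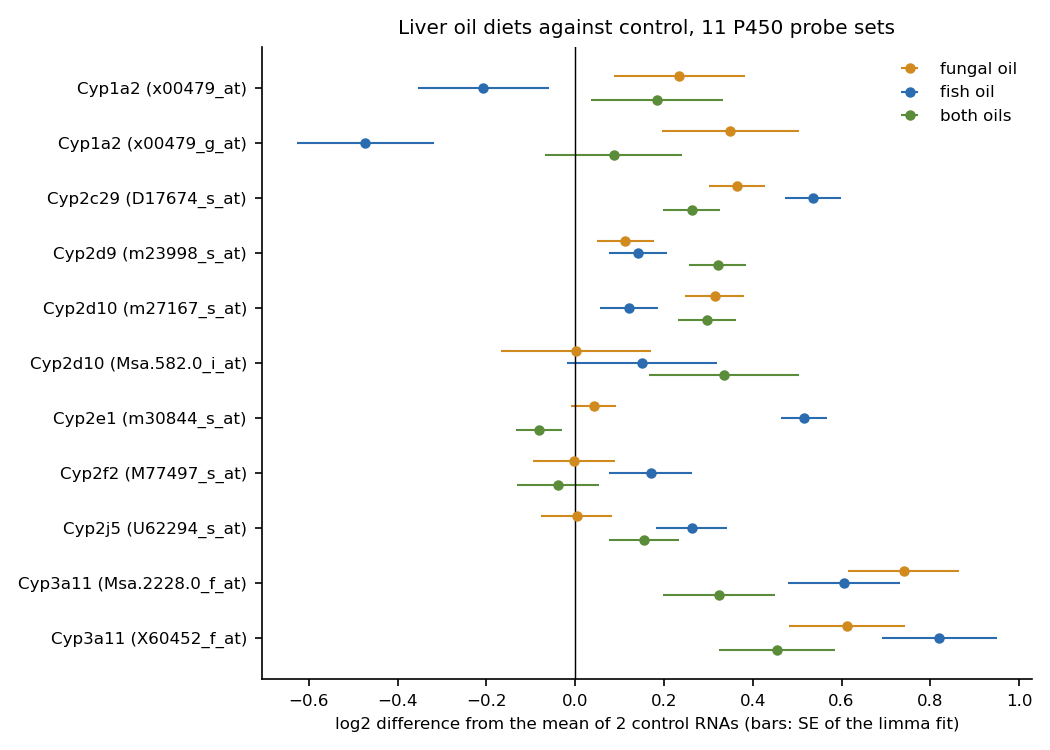
Log2 difference of each oil diet from the mean of the 2 liver controls (horizontal) for the 11 P450 probe sets tested, 1 RNA per oil diet; points are estimates and bars the standard error of the limma fit. Cyp3a11 lies farthest to the right for fungal and fish oil (0.61 to 0.82), and Cyp1a2 under fish oil is to the left of 0 (-0.21 and -0.47).

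With a limma adjusted p under 0.05 over 6537 probe sets, 0 of the 11 member probe sets were called in each of the 6 liver comparisons (the 3 oil diets, their mean, fish against fungal oil, and the interaction), and 0% of all probe sets were called; at an unadjusted p under 0.05 there were 601, 724 and 649 of them for fungal, fish and both oils. The comparisons with control share the same 2 control RNAs, so they are not separate evidence. Among the 3269 brightest, tested alone, 0 of 11 were called for fungal oil (0.795% of 3269 probe sets), 2 for fish oil (1.19%), 0 for both oils (1.13%) and 1 for the mean of the oils (1.71%); for fish against fungal oil it was 0 (0.214%) and for the interaction 0 (0.0306%). At an unadjusted p under 0.05, 4 of 11 were higher with fungal oil (3.23% of all probe sets), 5 with fish oil (4.31%) and 4 with both oils (3.98%), and 0 were lower with any of them (5.97%, 6.76% and 5.95%). For the mean of the oils it was 6 higher (4.88%) and 0 lower (6.59%), for fish minus fungal oil 1 higher, Cyp2e1 (4.57%), and 1 lower, a Cyp1a2 probe set (4.48%), and for the interaction 0 above 0 (5.69%) and 4 below, those of Cyp3a11 (2), Cyp2c29 and Cyp2e1 (3.63%). Singly, 8 member probe sets had the fungal oil RNA above both controls (32.1% of all), 9 the fish oil RNA (36.4%) and 8 that of both oils (39.9%), while 0, 2 and 1 had it below both (37.3%, 36.9% and 32.4%). All 3 oil RNAs exceeded both controls in 5 of 11 member probe sets (12.5% of all) and lay below both in 0 (11.9%). The 5 were those of Cyp3a11 (2), Cyp2c29, Cyp2d9 and Cyp2d10 on chip A.

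By sign alone, 10 of 11 were above the control mean with fungal oil (48.9% of all probe sets), 9 with fish oil (50.9%), 9 with both oils (55.7%) and 10 in the mean of the oils (49.0%). Quantile normalization changed these counts to 8, 7, 10 and 8. The median log2 difference of the 11 was 0.23, 0.17 and 0.26 for the 3 diets, beside -0.01, 0.01 and 0.05 over all probe sets. For fish minus fungal oil it was 0.15 beside 0.03, with 7 of 11 above 0 (52.7% of all); quantile normalization left a member median of 0 and 5 of 11 above 0. For the interaction it was -0.14 beside 0.06, with 4 of 11 above 0 (54.1% of all); quantile normalization gave a median of 0.0032 with 6 above 0, and cyclic loess a median of -0.0050. These counts are over probe sets, some of which share a gene or a family, and describe the members beside the background. The tested members ranked from 1 to 232 by liver mean on their chip, while all probe sets include much dimmer ones. Of the 50 brightest on chip A and chip B, 32 and 36 were above the control mean with fungal oil. With fish oil it was 43 and 42 (median log2 0.28 and 0.20), and with both oils 21 and 38. The part of brightness in the member counts was not tested.

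Other genes of the pathway were taken from lists of its parts. None of their genes passed a limma adjusted p of 0.05, as none of the 6537 probe sets did. Of the other P450 genes of the same families, 10 were on the chips under a single symbol and 7 were bright enough; 7, 7 and 6 were above the control mean with fungal, fish and both oils, where 47.8%, 50.2% and 54.1% of 3515 genes were, and 1 reached an unadjusted p under 0.05 with each diet. The gene that reached it was Cyp3a16, whose signal cannot be told apart from that of Cyp3a11. Cyp2b9, a relative of Cyp2b10, did not reach it. It gave 20 and 94 in the controls, 161 with fungal oil, 241 with fish oil and 146 with both oils. Its controls were far apart, and the lower one was near the floor. For haem supply and electron transfer, 7 of 11 genes were above control with each oil diet, where those shares of all genes were above it; 2, 3 and 2 were higher at an unadjusted p under 0.05 (3.81%, 4.84% and 4.47% of all genes) and 1, 0 and 1 lower (6.17%, 6.49% and 5.95%). The largest difference there was that of Alas1, whose enzyme starts haem synthesis, at 1299 and 1177 in the controls, 4573 with fungal oil, 2265 with fish oil and 3355 with both oils. Its log2 differences were 1.89, 0.87 and 1.44.

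Of 14 measured targets of CAR and PXR, a list that holds Cyp3a11 and Cyp2c29 themselves, 10, 12 and 10 were above the control mean with fungal, fish and both oils, with median log2 differences of 0.22, 0.51 and 0.43; 4, 7 and 6 of them had an unadjusted p under 0.05, in the higher direction, and 0, 0 and 1 in the lower, beside the same shares of all genes as above. Aldh1a1, a retinal dehydrogenase in this list, gave 2225 and 2548 in the controls, 3917 with fungal oil, 4274 with fish oil and 4091 with both oils. The counts were not particular to CAR and PXR targets. Of 15 measured PPAR-alpha targets, 8, 14 and 12 were above the control mean with fungal, fish and both oils. At an unadjusted limma p under 0.05, 6, 10 and 7 were higher and 0, 0 and 2 lower. Of 4 measured AH receptor targets, which include Cyp1a2, 4, 3 and 3 were above it. Of 17 conjugation enzymes, which act on P450 products, 10, 13 and 8 were above control, beside 47.8%, 50.2% and 54.1% of all genes. Ugt2b5, a glucuronosyltransferase, gave 2271 and 3478 in the controls and 3642, 4441 and 3826 with fungal, fish and both oils, so its controls were far apart. Among lipid-metabolising P450s of other families, 5, 6 and 6 of 7 were above control, beside the same shares of all genes. Cyp4a10, a fatty acid omega-hydroxylase and PPAR-alpha target, gave 321 and 349 in the controls, 894 with fungal oil, 1566 with fish oil and 1010 with both oils. Cyp4a14 was listed at -10 and -5 in the controls and at 160, 385 and 51 with fungal, fish and both oils.

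Genes of the perivenous zone, where most members are known to be expressed, were above control in 8, 7 and 8 of 9 cases, and those of the periportal zone in 12, 9 and 6 of 16, beside 47.8%, 50.2% and 54.1% of all genes. The perivenous list includes the members Cyp2e1, Cyp1a2, Cyp3a11 and Cyp2c29, and the periportal list includes Cyp2f2, so these counts partly restate the member values. Of the markers of other liver cells none passed the test. The summed intensity of 15 Kupffer cell and macrophage markers was 3046 and 3174 in the controls and 1910, 2352 and 2348 with fungal, fish and both oils. Of 13 bright enough, 13, 10 and 11 were below control, 6, 5 and 2 of them at an unadjusted p under 0.05. Of all genes, 6.17%, 6.49% and 5.95% were lower at that p, and 47.8%, 50.2% and 54.1% were above control. Of 8 blood cell markers 5 were below control with each diet, and of 12 cholangiocyte, endothelial and stellate markers 8 were, beside those same shares above it. The summed intensity of all 11 blood cell markers was 10409 and 12091 in the controls and 10724, 13348 and 8113 with fungal, fish and both oils, and that of the 17 others was 2753 and 2939 in the controls and 2429, 2576 and 2624. The hepatocyte sum was 85488 and 94564 in the controls, 92438 with fungal oil, 102545 with fish oil and 93358 with both oils. The part of these markers in the P450 values was not tested. The ratio of 3-prime to 5-prime signal of Gapdh, a sign of RNA integrity, was 1.89 to 2.51 on the liver arrays other than the chip B array of fish oil, where it was 3.26; the Cyp1a2 and Cyp3a11 probe sets are on that chip. The same ratio of actin was 3.33 on that array, within the 3.32 to 4.17 of the other liver arrays.

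Between tissues the members were far apart. All 11 member probe sets tested were called higher in liver (limma adjusted p under 0.05 and at least 2-fold), as were 20.2% of 7892 probe sets. In hippocampus 0 were called higher (31.7% of all). Probe sets were kept if bright in either tissue. Those at the floor in hippocampus were kept through liver, so their calls were largely set by that filter and are only description. The Cyp2b10 probe set was dim and not tested. Cyp2e1 was at or below the floor on all 3 hippocampus chip A arrays and at least 662-fold higher in liver. The same held for Cyp2d9 (at least 348-fold), Cyp2f2 (at least 321-fold) and Cyp2j5 (at least 101-fold), and on all 4 chip B arrays for the probe sets of Cyp3a11 (at least 424- and 362-fold). For Cyp2b10 the bound was at least 2.33-fold. Cyp2c29, at 19 to 41 in hippocampus, was 209-fold higher in liver.

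Probe sets of 1 gene disagreed in hippocampus. For Cyp1a2, x00479_at gave 220 to 246 in hippocampus, a 36.5-fold difference from liver, while x00479_g_at was at the floor on all 4 arrays and at least 268-fold higher in liver. For Cyp2d10 the chip A probe set gave 24 to 39, a 111-fold difference, while the chip B probe set gave 386 to 472, a 4.10-fold difference. The hippocampus signal of these genes thus depended on the probe set. Hippocampus has 1 RNA per diet, and only an additive fit of the oils over the 4 chip B arrays, with 1 residual degree of freedom and chosen after seeing the data, gives a test. In that limma fit 0 of the 2 member probe sets bright enough (x00479_at of Cyp1a2 and the chip B probe set of Cyp2d10) were called for either oil, and 0% of 3273 probe sets were (115 at an unadjusted p under 0.05 for fungal oil and 91 for fish oil). The log2 estimates were -0.12 and 0.04 for Cyp1a2 (SE 0.19) and 0.15 and -0.14 for Cyp2d10 (SE 0.15), for fungal and fish oil. Among member probe sets above the floor on all their arrays, only that of Cyp2c29 reached 2-fold, from 19 in control to 31 with fungal oil and 41 with fish oil, levels just above the floor.

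**Figure D4:**
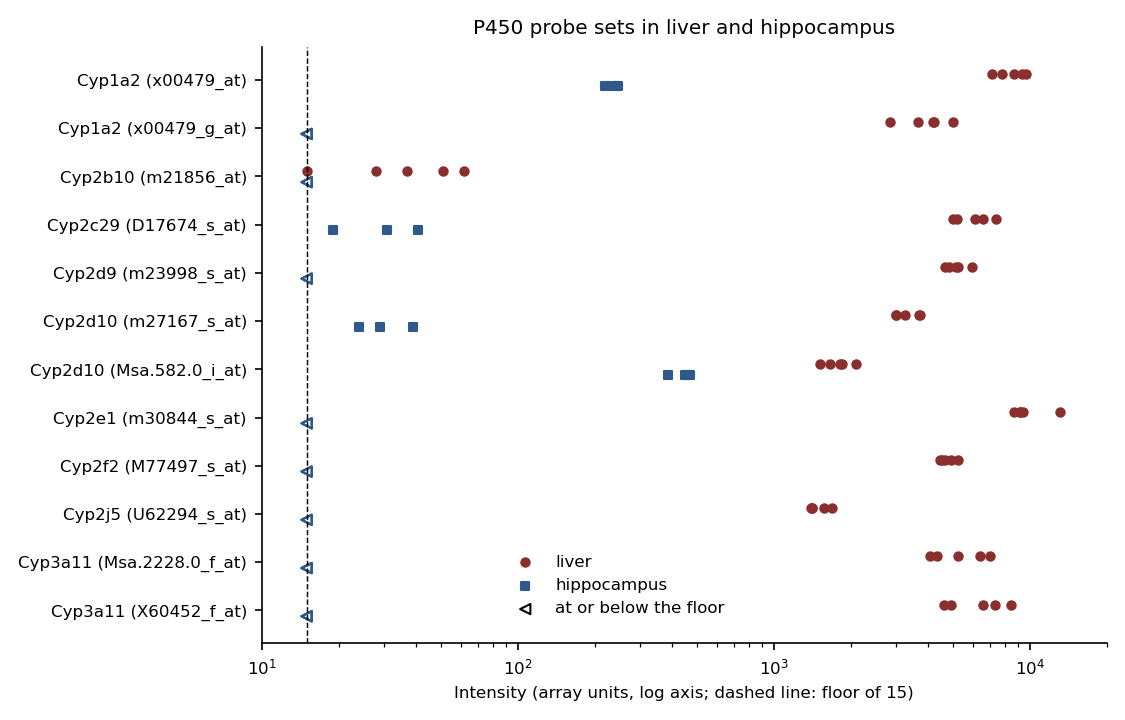
Intensity (array units, log axis) of the 12 P450 probe sets in 5 liver RNAs (red circles) and in 3 or 4 hippocampus RNAs (blue squares), with open triangles at the floor of 15 (dashed line) for values at or below it. All probe sets but Cyp2b10 are at 1403 or more in liver, and in hippocampus only x00479_at of Cyp1a2 and the chip B probe set of Cyp2d10 are at 220 or more.

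The only signal for Cyp2a5, the coumarin hydroxylase, came from the probe set shared with Cyp2a4, which lies outside the choice of members and was singled out after its values were seen. It gave 910 and 933 in the controls, 2682 with fungal oil, 1100 with fish oil and 2362 with both oils. The log2 differences were 1.54, 0.26 and 1.36 (SE 0.08), so the RNAs of the diets with fungal oil, 1 per diet, stood far above the others. Among the 3269 brightest its limma adjusted p was 0.013 for fungal oil and 0.0088 for both oils; over all probe sets it did not pass. Which of the 2 genes gave the signal cannot be told apart. Dbp, from the list of regulators of P450 genes and also picked after its values were seen, was highest in the same diets. It gave 176 and 162 in the controls, 581 with fungal oil, 174 with fish oil and 747 with both oils. Of 22 measured genes of that list, 15, 15 and 13 were above the control mean, beside 47.8%, 50.2% and 54.1% of all genes. A link between Dbp and the shared probe set was not tested.

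**Figure D5:**
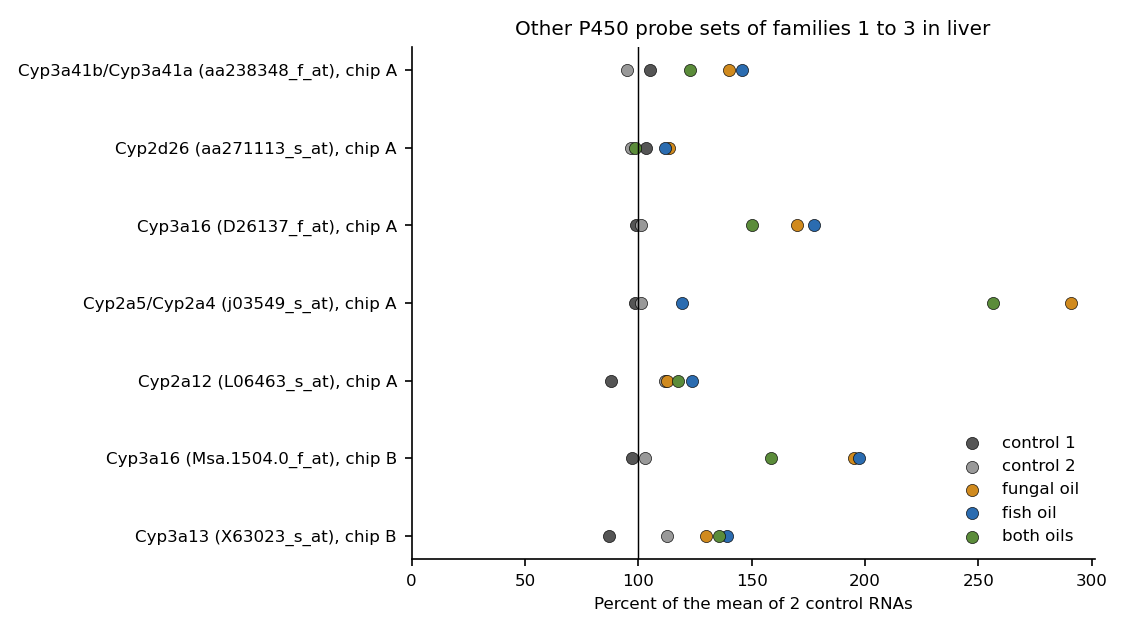
Intensity in each liver RNA as a percent of the mean of the 2 controls (horizontal) for 7 other P450 probe sets of the same families with a first control above 400; 1 point per RNA. The probe set shared by Cyp2a5 and Cyp2a4 is far to the right for fungal oil (2682 against 910 and 933) and both oils, while the Cyp3a probe sets have all 3 oil RNAs above both controls.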

How the data were processed

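Liver and hippocampus RNA was measured on 17 arrays, grouped by their titles and descriptions. For every array the authors deposited an intensity for each probe set, in whole numbers, some negative; software, background method and scaling were not given in the sources used here. The arrays lay on one level and were used as deposited. Values below 0.1 times the array's trimmed mean were set to that floor, log2 was taken, and probe sets with a tissue mean at or above the chip median were kept. Names came from GEO's platform annotation, and the 55 control probe sets of each chip were left out.

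Liver was fitted with limma 3.58.1 (R 4.3.3) as 4 diet groups per chip, with an intensity trend and Benjamini-Hochberg adjustment over both chips. The fit has 1 residual degree of freedom, so each oil RNA is assumed to vary like the 2 controls. Tissues were compared by a fit of tissue and diet after scaling to a trimmed mean of 150, and called at an adjusted p under 0.05 and 2-fold; a group at the floor on all arrays gives a bound from group means. Each fit was run on simulated data, with normal noise set by the spread of the 2 liver controls and no floor applied. Such data cannot show whether the oil RNAs vary like the controls. The number of arrays limits the precision.

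All probe sets of the members are named. From each list, at most the 4 kept genes with the largest difference in the mean of the oil diets qualify, a gene being represented by its brightest probe set; the nearest 3 genes by root-mean-square difference are named for 3 members. The members and the 20 lists were chosen with earlier results of these data known. Alternatives were other floors, filters and normalizations, no trend, an additive fit and leaving out RNAs.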

Additional observations from a re-analysis of the deposited data

Results flagged for a closer look

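Some member probe sets lay on opposite sides of control in liver and hippocampus. The differences were small or, in hippocampus, near the floor, and their opposite directions were not tested. Against control, x00479_at of Cyp1a2 was higher in liver and lower in hippocampus with fungal oil (9655 in liver, 220 in hippocampus) and with both oils (9322 and 232), its control values being 8658 and 7775 in liver and 246 in hippocampus. The other Cyp1a2 probe set was at the floor on all 4 hippocampus arrays. The chip A probe set of Cyp2d10 was likewise higher in liver and lower in hippocampus with fungal oil (3727 and 29) and fish oil (3263 and 24), with hippocampus control at 39. The liver controls of that probe set were 2993 and 3004, and its hippocampus values lay just above the floor of 15. The chip B probe set of Cyp2d10 was higher in liver and lower in hippocampus with fish oil (1844 and 386). Its controls were 1520 and 1817 in liver and 452 in hippocampus.

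Probe sets shared by 2 genes lie outside the choice of members and carried signal above both controls in liver. That of Cyp3a41a and Cyp3a41b gave 1985 and 1792 in the controls, 2641 with fungal oil, 2751 with fish oil and 2320 with both oils. That of Cyp2a5 and Cyp2a4 gave 2682, 1100 and 2362 with the same diets, against 910 and 933.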

How the results depend on the processing

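In liver the count of all probe sets called, 0 for each comparison, depended on the filter. Without a filter it was 299, 375, 301 and 877 for fungal, fish, both oils and their mean, of which 280, 357, 286 and 819 had both controls at the floor, and 599 and 812 for fish against fungal oil and the interaction. The 3269 brightest probe sets gave 26, 39, 37, 56, 7 and 1 in that order, with 2 member probe sets for fish oil (Cyp2c29 and Cyp2e1) and 1 for the mean of the oils (Cyp2c29). The additive fit gave 5 for fungal oil, 16 for both oils and 16 for the mean. Median centring gave 14 for both oils and 13 for the mean. Cyclic loess, added after seeing the data, gave 3, 1, 14 and 16 for fungal, fish, both oils and the mean. In hippocampus 0 values reached 2-fold under the higher floor, and 0 member probe sets were called in the additive fit of the chip B arrays, likewise added.

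Small log2 differences changed sign. For fungal oil this was Cyp2j5 (-0.051 quantile, -0.044 additive, -0.042 loess), Cyp2e1 (-0.23 additive, -0.056 loess), Cyp2d10 on chip B (-0.013 quantile) and Cyp2f2 (0.031 median centring). For fish oil it was Cyp2d9 (-0.050 quantile, -0.0099 loess) and Cyp2d10 on chip A (-0.016 quantile). For both oils it was Cyp2e1 (0.082 quantile, 0.010 additive) and Cyp1a2 x00479_g_at (-0.015 median centring). For the mean it was Cyp2f2 (-0.045 quantile, -0.0067 additive, -0.040 loess, -0.021 without fish oil), Cyp1a2 (x00479_at -0.0053 quantile; x00479_g_at 0.038 additive and 0.22 without fish oil) and Cyp2e1 (-0.020 without fish oil). For fish minus fungal oil and the interaction, 4 genes were followed singly (Cyp3a11, Cyp1a2, Cyp2c29 and Cyp2e1), of which only the interaction of Cyp1a2 x00479_at turned (-0.024 median centring); over all 11 probe sets, those above 0 went from 7 to 5, 6 and 6 and from 4 to 6, 3 and 5 under quantile normalization, median centring and cyclic loess. The cause was not tested. Under each alternative run, the tested member probe sets kept their tissue calls, which the filter largely set for those at the floor in hippocampus. Leaving out a control RNA left no residual degree of freedom and gave values without a test. No pairing by mouse was possible, as the labels name no single mice, and the tissue fit matched arrays by diet only.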
